A study of Mus musculus with 6 samples.

Results

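The genes described here are the cyclins, kinases and inhibitors that govern the G1 phase of the cell cycle, with the retinoblastoma gene and E2f1. There are 10 of them, of 16797 genes tested in the series: Ccnd1, Ccnd2, Ccnd3, Cdk4, Cdk6, Cdkn1b, Cdkn2c, Cdkn2d, Rb1 and E2f1. They were taken by gene symbol from the array annotation. The genes were chosen by these same measurements, namely the levels of the D cyclins in the 3 lines and the ratios between the shRNA labels within each line, so those values are a description and no member is tested. All 10 lay above the brightness floor used below.

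RNA came from 3 cultured mouse cancer lines on 6 arrays, a pair per line, sh Ctrl and sh Spp1. LLC is the Lewis lung carcinoma line. The label of AE17 is malignant mesothelioma, a tumour of the pleural or peritoneal lining. MC38 is given as a colon adenocarcinoma. An sh Spp1 array carries the genotype label Spp1 depletion, from a short hairpin RNA against the gene for the secreted integrin ligand osteopontin. An sh Ctrl array carries the label wild type, so whether the controls received a hairpin is not given in the sources used here, nor is whether a line was 1 clone or a pool. All cells grew in DMEM with fetal bovine serum.

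D-type cyclins are made in response to growth factors and bind Cdk4 and Cdk6. The active kinases phosphorylate the retinoblastoma protein, which then releases E2F transcription factors, and these switch on genes for DNA synthesis. Inhibitors of the INK4 family, such as the products of Cdkn2c (p18) and Cdkn2d (p19), bind Cdk4 and Cdk6 themselves. Cdkn1b encodes p27, which holds back cyclin E with Cdk2 and also binds cyclin D complexes. In tumour lines this pathway is often altered at the level of the D cyclins, the inhibitors or Rb1.

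Levels are log2 intensities after quantile normalization, and every ratio is sh Spp1 over sh Ctrl within a line, 1 array against 1 array with no replicate. The number of arrays limits the precision. The brightness floor is a log2 intensity of 4.49, the 30th percentile of all probe sets. Probe sets of different genes bind with different strength, so the level of 1 gene is not set against that of another, and each gene is ordered across lines only. The 2 arrays of AE17 correlated at r = 0.939 over probe sets, against 0.979 in LLC and 0.982 in MC38. That was the lowest of the 15 pairs of arrays, under those of AE17 with the other lines, which ran from 0.942 to 0.954. Every AE17 ratio below rests on this pair. None of the probe sets named Spp1, so the directions rest on the labels. Of 5 leukocyte markers with a probe set, 3 or 4 lay under the floor on each array, and the highest value was 5.29. The labels of tissue were not borne out by every marker. On the MC38 arrays the 6 intestinal markers, Cdx2 and Vil1 among them, ran from 4.35 to 5.18, and on the LLC arrays the 5 lung markers ran from 3.46 to 5.59. The mesothelial gene Msln had 5.13 and 5.34 in AE17, where Wt1 had 5.83 and 5.64, while Msln had 9.87 and 9.96 in MC38. Pdpn, of the same list, had 6.99 and 9.75 in AE17 and 9.70 and 9.63 in MC38.

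RefSeq promoter windows, from 250 bases before the start to 50 after, were found in the table used here for 7 of the 10 genes, in build GRCm38.p6. The windows of the 2 kinases are shown because Cdk4 holds the E-box CACGTG at 4 places and Cdk6 at 1. Of the 9 member windows 3 hold it, the other being of Cdkn2c. This motif is bound by Myc and its relatives. The 250 bases before each start are printed 5′ to 3′, with the E-boxes in capitals. The Cdk4 stretch is chr10:127063285-127063534 on the plus strand and the Cdk6 stretch chr5:3343643-3343892, also on the plus strand.
Cdk4: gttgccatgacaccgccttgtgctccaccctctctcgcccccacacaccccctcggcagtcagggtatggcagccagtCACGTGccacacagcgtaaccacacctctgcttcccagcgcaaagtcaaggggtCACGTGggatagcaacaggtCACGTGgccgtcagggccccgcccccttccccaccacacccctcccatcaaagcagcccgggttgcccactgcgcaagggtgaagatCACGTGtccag
Cdk6: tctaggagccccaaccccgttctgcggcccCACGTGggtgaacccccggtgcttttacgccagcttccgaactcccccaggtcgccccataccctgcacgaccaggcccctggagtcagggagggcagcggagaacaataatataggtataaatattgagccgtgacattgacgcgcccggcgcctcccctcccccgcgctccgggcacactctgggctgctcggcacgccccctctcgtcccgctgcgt

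The E-boxes of Cdk4 begin 172, 118, 98 and 11 bases before the start, and that of Cdk6 begins 220 bases before it. CACGTG reads the same on both strands and was found in 7.15% of 32851 RefSeq windows of this length, and 4 or more times in 0.0244% of them, or 8 windows. E2F motifs, searched on both strands as TTTCCCGC, TTTCGCGC, TTTGGCGC and TTTGCCGC, were found in 2.26% of all windows and in 0 of the 9 windows of the members. The 9 windows cover 7 genes, with a further start for Cdkn2c and for Ccnd3. Whether each window, that of E2f1 included, holds the main start of its gene was not checked. The 0 of 9 is therefore not read as a lack of E2F motifs at the promoters of these genes. Motifs outside the windows would be missed. A match is a run of letters and not a measured site. Myc itself had 11.57 and 11.83 in LLC (sh Ctrl, then sh Spp1), then 11.41 and 10.90 in AE17 and 9.90 and 10.16 in MC38. Myc was thus lowest in MC38, on both arrays. A link between Myc, the E-boxes and the levels of Cdk4 or Cdk6 was not tested.

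The D cyclins differed most between lines through Ccnd2 (Entrez gene 12444). Its log2 intensity was 11.05 on the sh Ctrl array and 11.57 on the sh Spp1 array of LLC, then 10.57 and 11.22 in AE17, but 7.07 and 4.81 in MC38. Both MC38 arrays lay below the other 4 by at least 3.50 log2 units. Between the sh Ctrl arrays alone, the log2 difference of MC38 minus LLC was -3.98, and between the sh Spp1 arrays it was -6.76. In the intensities as deposited, Ccnd2 read 2255 and 3953 in LLC, then 1132 and 2070 in AE17 but 151 and 29.3 in MC38.

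Ccnd1 (Entrez gene 12443), the cyclin most directly driven by Ras and ERK signalling, was present at high signal in every line. It had 11.25 and 11.58 in LLC, then 10.70 and 11.14 in AE17 and 11.74 and 11.73 in MC38. The order of the line means was MC38 at 11.73, LLC at 11.41 and AE17 at 10.92, with no overlap between lines. The gaps between neighbouring lines were only 0.15 and 0.11, less than the 0.33 between the arrays of LLC. The line with the lowest Ccnd2 was thus the line with the highest Ccnd1, by a small margin.

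Ccnd3 (Entrez gene 12445), a D cyclin with a prominent role in lymphoid cells and muscle, had 8.50 and 8.83 in LLC, then 8.96 and 9.97 in AE17 and 8.28 and 8.44 in MC38. AE17 stood above the other lines and MC38 below them. The gaps, 0.13 and 0.06, were smaller than the difference between the arrays of AE17.

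**Figure D1:**
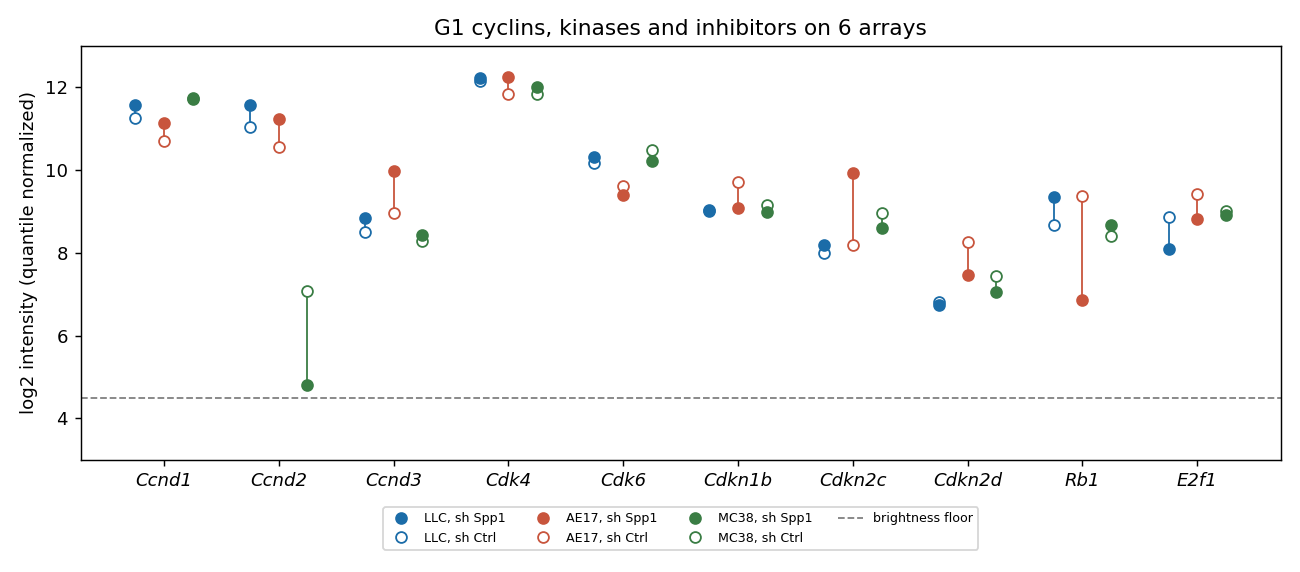
Log2 intensity after quantile normalization of the 10 genes on 6 arrays, with open circles for sh Ctrl, filled circles for sh Spp1, a bar joining the arrays of a line, colours for lines and a dashed line at the brightness floor of 4.49. Ccnd2 in MC38, at 7.07 and 4.81, lies far below its values in LLC and AE17, and the long bars of AE17 belong to Rb1, Cdkn2c and Ccnd3.

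Between the shRNA labels, the D cyclins moved apart in MC38. The log2 ratios of Ccnd2 in LLC and AE17 were 0.52 and 0.66, while MC38 had -2.26, a 4.79-fold lower signal on the sh Spp1 array there. That array, at 4.81, lay close to the floor, so the size of this ratio is approximate. In the order LLC, AE17, MC38, Ccnd1 had 0.33, 0.44 and -0.02, and Ccnd3 had 0.33, 1.01 and 0.16. In LLC and AE17 all 3 D cyclins were higher on the sh Spp1 array, under quantile, cyclic loess and no scaling alike. After quantile normalization 52.7% of all tested genes were higher in LLC and 47.3% in AE17. The D cyclins were chosen with these ratios known, so nothing is read from their shared sign. In MC38 the sign of Ccnd1 turned with the scaling, to 0.23 relative to all genes as deposited.

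Of the catalytic partners, Cdk4 had the narrowest range of the 10 genes and Cdk6 a wider one. Cdk4 (Entrez gene 12567) had 12.15 and 12.23 in LLC, then 11.84 and 12.25 in AE17 and 11.84 and 12.00 in MC38, a range of 0.41. The lines overlapped, and the line means of 12.19, 12.04 and 11.92 did not differ beyond the 0.41 between the arrays of AE17. Cdk6 (Entrez gene 12571), the second kinase of the D cyclins, had 10.17 and 10.31 in LLC, then 9.63 and 9.39 in AE17 and 10.47 and 10.22 in MC38. Its range was 1.08. Both AE17 arrays lay below the other 4, by 0.54, while LLC and MC38 overlapped. In the order LLC, AE17, MC38, the ratios of Cdk4 were 0.08, 0.41 and 0.16 and those of Cdk6 were 0.14, -0.23 and -0.25. Relative to all genes the sign of Cdk4 in LLC turned with cyclic loess (-0.01), and those of Cdk6 in AE17 and MC38 turned in the values as deposited, to 0.14 and 0.06.

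The inhibitors each took a course of their own. Cdkn2c (Entrez gene 12580) had 8.0 and 8.18 in LLC, then 8.19 and 9.93 in AE17 and 8.97 and 8.60 in MC38. The sh Spp1 array of AE17 was the highest of the 6, with a ratio of 1.74, or 3.33-fold, against 0.19 in LLC and -0.37 in MC38. On the sh Ctrl arrays AE17 exceeded LLC by 0.20 and lay below MC38, whose excess over it was 0.77, so that the place of AE17 in the order depends on the label.

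Cdkn2d (Entrez gene 12581) had 6.81 and 6.73 in LLC, then 8.26 and 7.46 in AE17 and 7.45 and 7.06 in MC38. LLC was the lowest line and AE17 the highest, though the AE17 sh Spp1 array stood only 0.01 above the nearest MC38 array. Its ratios were -0.08, -0.80 and -0.39, lower on the sh Spp1 array in every line and under each scaling relative to all genes. The 2 INK4 genes thus had opposite signs in AE17, 1.74 against -0.80.

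Cdkn1b (Entrez gene 12576) had 9.01 and 9.05 in LLC, then 9.72 and 9.07 in AE17 and 9.16 and 8.99 in MC38. The lines overlapped, and only the AE17 sh Ctrl array stood above the rest. The ratios were 0.04, -0.64 and -0.17, and the last turned to 0.09 relative to all genes as deposited. The protein p27 is controlled largely by its degradation, which transcript levels do not show.

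Rb1 (Entrez gene 19645), which encodes the retinoblastoma protein, had the widest ratio of the set. Its levels were 8.68 and 9.36 in LLC, then 9.36 and 6.86 in AE17 and 8.41 and 8.67 in MC38. The sh Spp1 array of AE17 lay below the other 5, with a ratio of -2.51, a 5.68-fold lower signal, against 0.68 in LLC and 0.26 in MC38. Some genes of cell type differed on the same AE17 pair, from sh Ctrl to sh Spp1: the collagen gene Col1a1 read 6.87 and 11.96, the keratin genes Krt8 11.08 and 6.47 and Krt20 6.83 and 3.79. Their lists had no common direction. Of the fibroblast markers Pdgfra read 10.11 and 8.97 and Lum 4.25 and 5.14, while Col1a2 (5.75, 5.89) and Dcn (5.71, 5.81) hardly varied. Of the simple epithelial markers Krt18 and Epcam had ratios of -0.34 and -0.22, but Krt19 and Cdh1 had 0.49 and 0.15. The other intestinal markers ran from -0.55 to 0.38. Of the 5 fibroblast markers 1 and 2 reached a level of 8 on these arrays, Pdgfra on both and Col1a1 on sh Spp1. Of the 5 simple epithelial markers 1 and 0 did. Their part in the AE17 ratios of Rb1, Cdkn2c and Ccnd3 was not tested. The Rb1 values come from 1 probe set, and the other one named for Rb1 alone lay under the floor on every array, between 2.67 and 3.44. A pair of probe sets annotated to Rb1 together with Lpar6, a receptor gene that lies inside Rb1, were not taken as Rb1. Their ratios in AE17 were -0.63 and -1.09, lower as well but smaller in size. In LLC these probe sets had -0.21 and 0.09, so they did not share the 0.68 of Rb1 there, and in MC38 they had 0.25 and 0.01.

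E2f1 (Entrez gene 13555), a transcription factor held by the retinoblastoma protein, had 8.88 and 8.09 in LLC, then 9.43 and 8.82 in AE17 and 9.0 and 8.92 in MC38. The LLC sh Spp1 array was the lowest of the 6 and the lines overlapped. The ratios were -0.78, -0.62 and -0.08. The first 2 were below 0 under each scaling relative to all genes, between -0.89 and -0.46 in LLC and between -0.58 and -0.26 in AE17, while that of MC38 turned to 0.18 as deposited.

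**Figure D2:**
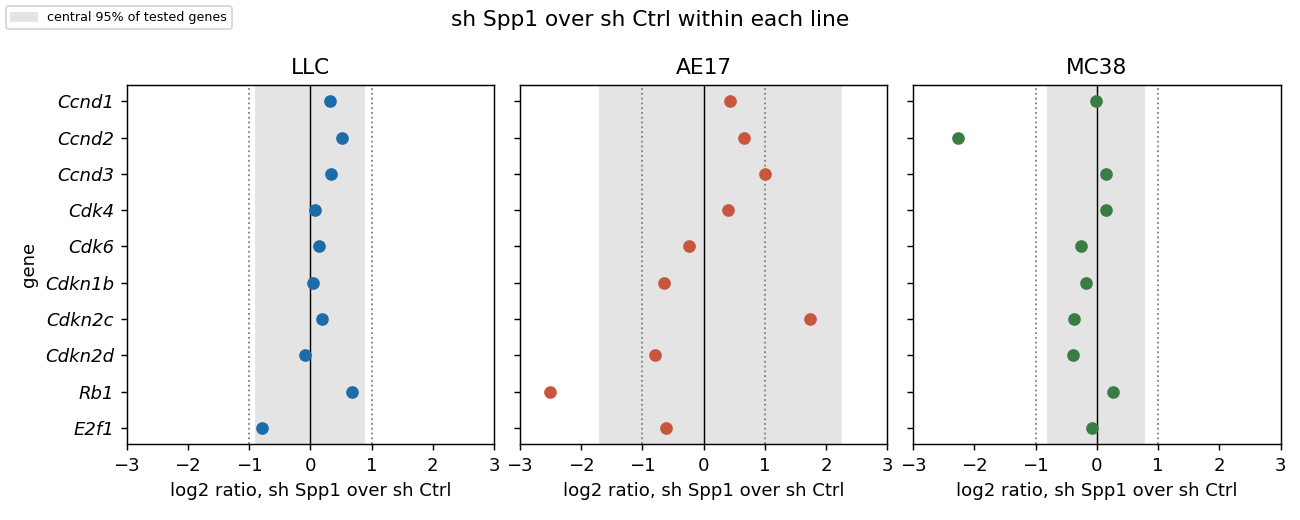
Log2 ratio of sh Spp1 over sh Ctrl (horizontal axis) for the 10 genes in LLC, AE17 and MC38, 1 point per gene, with dotted lines at 1 log2 unit and grey bands for the central 95% of tested genes. Ccnd2 at -2.26 in MC38 and Rb1 at -2.51 in AE17 lie outside the bands, and the band of AE17 is the widest.

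Counted by size, 0 of the 10 genes reached 1 log2 unit in LLC, where 3.48% of 16561 genes did. By direction, 1.72% of genes were that much higher in LLC and 1.76% lower. In AE17 it was 3 of 10, namely Cdkn2c and Ccnd3 higher and Rb1 lower, where 18.6% of 16719 genes did, 9.97% higher and 8.67% lower. In MC38 it was 1 of 10, Ccnd2 lower, where 2.53% of 16520 genes did, 0.872% higher and 1.66% lower. The genes were chosen with these ratios known, so nothing is read from the comparison. Cdkn2c and Ccnd3, though past 1 log2 unit, lay inside the central 95% of AE17 ratios, which ran from -1.69 to 2.24, whereas that of MC38 ran from -0.80 to 0.77. Ccnd3, at 1.01, only just reached the size, and Cdkn2d, at -0.80 in AE17, was the nearest below it among the genes of that line. Ccnd3 and Cdk4 were higher in all 3 lines, where 16.8% of tested genes were, and Cdkn2d and E2f1 lower in all 3, where 15.5% were. Those of Cdk4 did not hold in LLC with cyclic loess, nor those of E2f1 in MC38 as deposited, as given above.

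Across lines, 6 of the 10 had a line whose arrays lay both above or both below the other 4, where 48.4% of 16797 genes did. Both LLC arrays lay below the rest for Cdkn2c and Cdkn2d (11.6% of genes) and above the rest for 0 members (7.72%). For Cdkn2c that gap was only 0.01 log2 units, less than the 0.19 between the LLC arrays. Both AE17 arrays lay above the rest for Ccnd3 and Cdkn2d (14.7%) and below them for Ccnd1 and Cdk6 (7.57%). Both MC38 arrays lay above the rest for Ccnd1 (8.48%) and below them for Ccnd2 and Ccnd3 (11.4%). Since the genes were chosen with these levels known, nothing is read from the shares. A range of at least 2 log2 units over the arrays was found for Ccnd2, at 6.76, and Rb1, at 2.51, where 11.2% of genes had one. Ccnd2 owes its range to a line and Rb1 to 1 array. Averaged over the arrays of a line, MC38 was 41.4-fold below LLC and 31.0-fold below AE17 in Ccnd2. Every other member differed between lines by 2.15-fold at most. The folds of Ccnd2 include the MC38 sh Spp1 array close to the floor. Between the sh Ctrl arrays alone its log2 differences were -3.98 to LLC and -3.50 to AE17.

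The scaling set the size of many small ratios. The median log2 ratio of all tested genes was 0.03 (LLC), -0.04 (AE17) and 0.02 (MC38) after quantile normalization, and -0.46, -0.23 and 0.08 in the values as deposited. With these medians taken off, the deposited values gave 1.08 for Ccnd1, 1.27 for Ccnd2 and 1.17 for Rb1 in LLC, against 0.30, 0.50 and 0.66 after quantile normalization. Of the 30 ratios, 24 kept their sign under quantile, cyclic loess and no scaling, of which LLC gave 9, AE17 9 and MC38 6. The ratios of largest size moved as well, but stayed past 1 log2 unit with the same sign. Ccnd2 in MC38 ran from -2.74 to -2.28, Rb1 in AE17 from -2.56 to -2.26 and Cdkn2c in AE17 from 1.78 to 2.16.

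**Figure D3:**
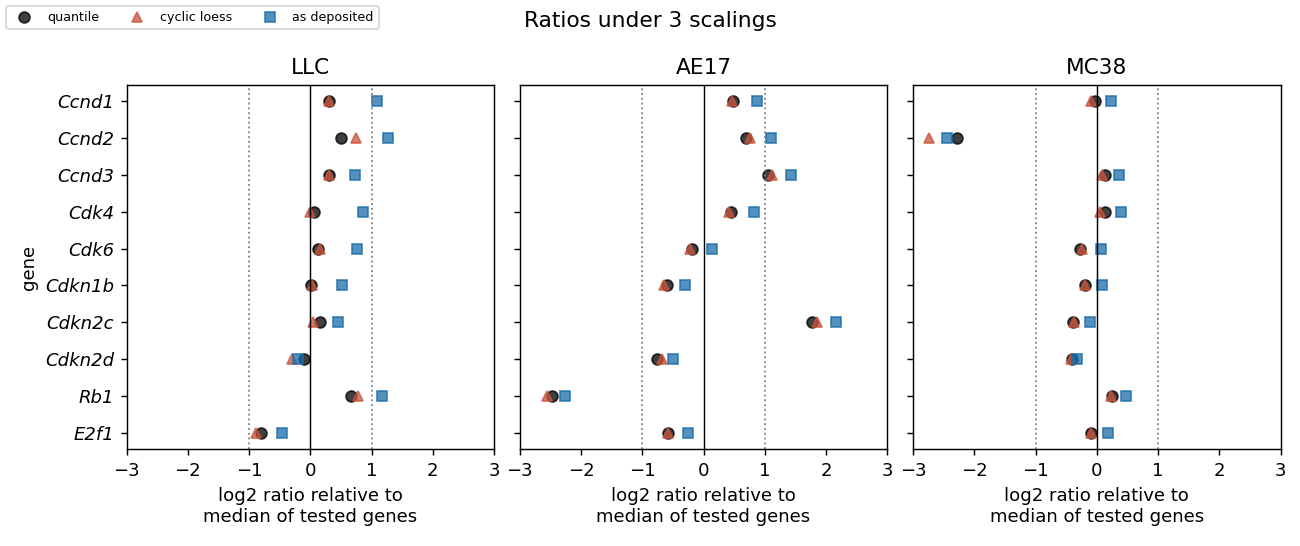
Log2 ratio of sh Spp1 over sh Ctrl minus the median ratio of all tested genes in that line, for the 10 genes under quantile normalization (circles), cyclic loess (triangles) and no scaling (squares). In LLC the squares lie to the right of the circles for 9 of the 10 genes, while Rb1 and Cdkn2c in AE17 and Ccnd2 in MC38 keep their sign and stay past 1 log2 unit.

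The rest of the G1 pathway was then read from gene lists written with earlier results of these data known. In a limma fit that blocks on the cell line, 0% of 16797 genes passed an adjusted p of 0.05 for sh Spp1 against sh Ctrl, the smallest being 0.723, and 1017 genes, or 6.05%, had an unadjusted p under 0.05. Hence 0 genes of the lists passed. Between lines limma also called 0%, with 11.5% of genes at an unadjusted p under 0.05 for MC38 against LLC, 12.8% for AE17 against LLC and 13.2% for MC38 against AE17. These p-values reflect how far the 3 lines differ in their response, and nothing says that the arrays of a line came from separate cultures grown in parallel.

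Of the other inhibitors, Cdkn1a, which encodes p21, was higher with sh Spp1 in all 3 lines. Its levels were 11.23 and 11.97 in LLC, then 10.12 and 11.33 in AE17 and 9.77 and 10.28 in MC38, a mean ratio of 0.82 ± 0.35 (SD, n = 3 lines; limma adjusted p = 0.723). Cdkn2b, the p15 gene, differed in AE17 alone by more than 1 log2 unit, from 6.72 to 7.89, against ratios of 0.00 in LLC and -0.22 in MC38. Cdkn2a, which encodes p16 and p19ARF, hardly varied, at 5.88 and 5.88, 6.57 and 6.59, and 6.03 and 6.06. Cdkn1c, the p57 gene, stayed between 5.52 and 5.80. In AE17 Cdkn2b and Cdkn2c were thus higher with sh Spp1 and Cdkn2d lower, so the INK4 family had no common direction there.

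The cyclin E and Cdk2 module acts after the D cyclins, and its genes went both ways. Of the 7 tested, 0 reached 1 log2 unit in any line, where 3.48%, 18.6% and 2.53% of all genes did in LLC, AE17 and MC38. The median ratios for LLC, AE17, MC38 were 0.03, 0.01 and 0.09, where all genes had 0.03, -0.04 and 0.02. Ccne1 had 8.07 and 8.27 in LLC, then 9.22 and 9.23 in AE17 and 7.90 and 7.94 in MC38, so it was higher in AE17 than in the other lines on both arrays. In AE17 Mnat1 and Ccnh, subunits of the kinase that activates Cdk2, had -0.67 and -0.57, while its catalytic subunit Cdk7 had 0.19. Cdk2 had ratios of -0.03, 0.47 and 0.30, and Ccna2, the cyclin of S phase, -0.58, -0.39 and 0.05. The probe set of Ccne2 is annotated to Ints8 as well, so Ccne2 has no value here.

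Among the relatives of Rb1 and E2f1, the pocket protein genes Rbl1 and Rbl2 were lower on the sh Spp1 array in every line after quantile normalization, where 15.5% of genes were, but in MC38 Rbl1 turned to 0.18 relative to all genes as deposited and Rbl2 was at -0.06. Rbl1 had ratios of -0.69, -0.91 and -0.13, in the order LLC, AE17, MC38, and Rbl2 had -0.66, -0.96 and -0.33, with a limma adjusted p of 0.723 for each. Tfdp2, which encodes a dimer partner of E2F proteins, had -1.18, -0.92 and 0.50, and E2f5 had 0.47, -1.13 and -0.31. E2f3 had 0.08, 0.54 and 0.69. The 11 genes of this list had medians of -0.23, -0.26 and 0.20, which became 0.00, 0.04 and 0.49 relative to all genes as deposited. Of the 6 genes of the MuvB core with Mybl2, which binds the pocket proteins, Mybl2 had -1.07 in LLC and Lin54 -0.86 in AE17.

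Genes for the turnover of D cyclins and p27 went both ways, with medians of 0.07, 0.10 and 0.09 over 14 genes. Cryab, a small heat shock protein that takes part in cyclin D1 degradation with Fbxo4, had 5.02 and 5.24 in LLC, then 8.21 and 11.13 in AE17 and 7.87 and 6.87 in MC38. Fbxw8, an F-box protein of cyclin D1 turnover, had a ratio of 1.12 in AE17, and Fbxw7, which marks cyclin E for degradation, had 0.87 in LLC and -0.66 in AE17. Rnf123, a ligase subunit for p27, had 0.53, 0.50 and 0.52 in these lines. Skp2, which marks p27 for degradation, had -0.11, -0.20 and 0.10.

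In LLC, where E2f1 was lower, 13 of 15 E2F target genes of S phase entry were also lower on the sh Spp1 array, where 47.2% of all tested genes were, with a median of -0.69. Relative to all genes as deposited, 9 of the 15 were lower and the median was -0.17. At least 1 log2 unit lower were 4 of them, where 1.76% of genes were that much lower in LLC, but 2, Tyms and Tk1, relative to all genes as deposited. Tk1, which encodes thymidine kinase, had the lowest ratio at -1.51. In AE17, where E2f1 and Rb1 were lower, the list had a median of 0.09 and Tk1 had 1.83. Of the 6 proliferation markers all were lower in LLC after quantile normalization, Birc5 at -0.92, but relative to all genes as deposited 3 were lower and 3 higher. In AE17 they went both ways, with Top2a at -1.61 and Mki67 at -1.19 but Plk1 at 0.65 and Birc5 at 0.10. Their part in the ratios of the G1 genes was not tested.

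**Figure D4:**
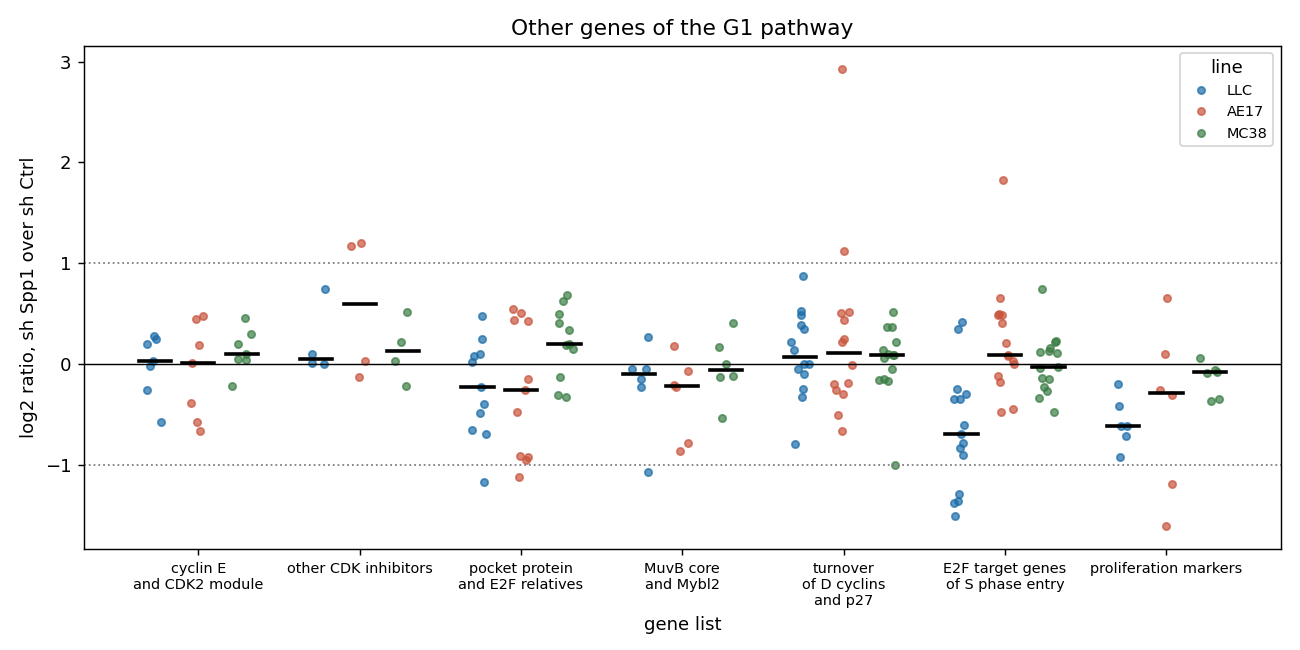
Log2 ratio of sh Spp1 over sh Ctrl (vertical axis) for the other genes of the G1 pathway by list, 1 point per gene, colours for lines, black bars for medians and dotted lines at 1 log2 unit. The E2F target genes lie mostly below 0 in LLC, with a median of -0.69, and the cyclin E and Cdk2 module lies within 1 log2 unit in each line.

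The pattern of Ccnd2 over the 6 arrays was nearest to that of Cth, an enzyme of cysteine synthesis, with a root mean square difference of 0.57 log2 units after centring each gene, where Ccnd2 itself deviated by 2.54. Cth had 9.98 and 10.69 in LLC, then 9.14 and 9.63 in AE17 and 6.98 and 4.63 in MC38. Next were the kinase gene Stk39 at 0.81 and the semaphorin gene Sema3e at 0.88, the latter under the floor on both MC38 arrays. For Rb1, whose own deviation was 0.84, the nearest were Slc25a33 at 0.16, Slc25a30 at 0.19 and Zfp930 at 0.24. Slc25a30 lies on the chromosome of Rb1, 14 tested genes away, just beyond the neighbours read below. Each of the 3 genes nearest to Rb1 had its lowest value on the sh Spp1 array of AE17, and the 6 arrays are only 3 lines. The genes were picked for closeness of pattern, so the low arrays they share with Ccnd2 or Rb1 follow from the choice.

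**Figure D5:**
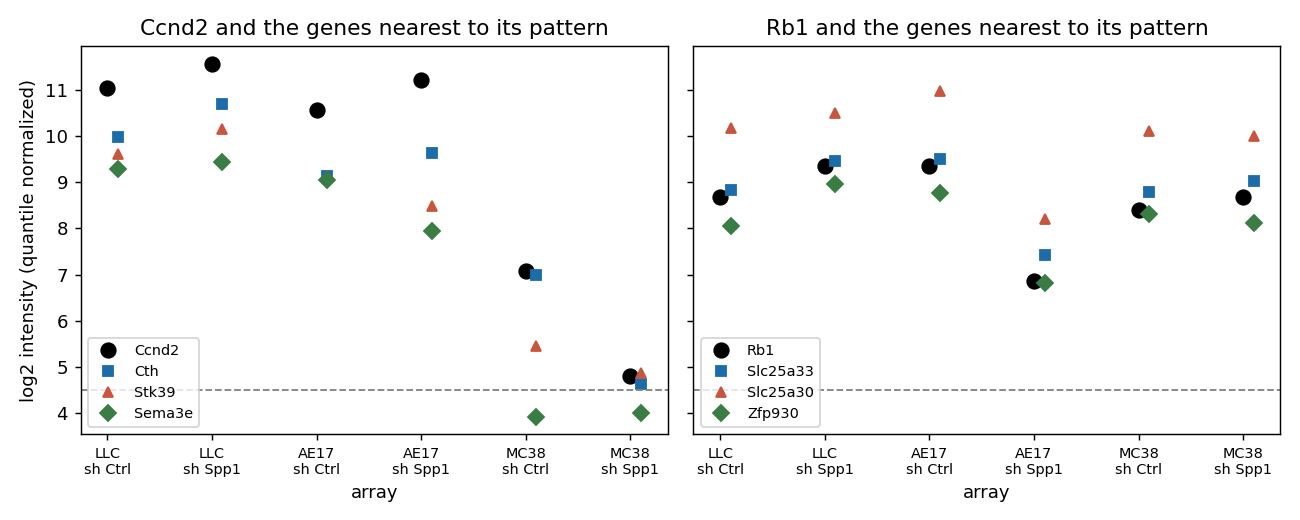
Log2 intensity after quantile normalization on the 6 arrays for Ccnd2 (left) and Rb1 (right), as black circles, and the 3 genes nearest to each in pattern, with the brightness floor of 4.49 dashed. Ccnd2 and Cth share their low values in MC38, and Rb1 and its nearest genes share 1 low array, AE17 sh Spp1. The genes were picked for this likeness.

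Genes that neighbour the members in the RefSeq gene order of assembly GRCm38.p6 were read in the same way, up to 10 tested genes to each side. They are given first for Rb1, Cdkn2c and Ccnd2, whose single ratios were the widest. Around Rb1, 13 of 20 neighbours were lower in AE17, where 52.7% of all tested genes were, with a median of -0.24, and 4 were lower by at least 1 log2 unit, where 8.67% of genes were. These were Fndc3a at -2.01, Med4 at -1.42, Sucla2 at -1.25 and Lcp1 at -1.03, while the genes directly beside Rb1, Itm2b and Rcbtb2, had -0.85 and -0.25. Around Cdkn2c, 7 of 20 neighbours were higher in AE17 by at least 1 log2 unit, where 9.97% of genes were, and the median was 0.37. Around Ccnd2 in MC38 the median of 20 neighbours was 0.02, with 2 of them lower by at least 1 log2 unit, where 1.66% of genes were. Members with smaller ratios had uneven neighbours too. In AE17, 16 of 20 were lower around E2f1 and 8 of 10 around Cdk6, where 52.7% of all tested genes were. Around Ccnd1 the AE17 median of 13 neighbours was 0.66. In MC38, 9 of 10 neighbours of Cdk6 were lower, where 47.7% of genes were. The AE17 medians around Cdk4, Cdkn1b, Ccnd3 and Cdkn2d were 0.19, -0.16, -0.09 and 0.01.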

How the data were processed

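Linear probe set intensities of 6 arrays were deposited, made with RMA per the submitters' processing notes and GeneSpring GX 12.5 per the labels' design text; the medians of the arrays ran from 26.6 to 64.2, so they had not been brought to 1 distribution. The genome build is not given in the sources used here. The intensities were log2 transformed and quantile normalized with limma 3.58.1 in R 4.3.3. Gene symbols are those of the platform annotation. Among 41345 probe sets, 23521 carried 1 symbol, 1814 several and 16010 none. The brightest probe set at or above the 30th percentile represented a gene. For the shRNA, lmFit and eBayes were run blocking on cell line, which pairs the arrays by label; this pairing comes from the titles. Contrasts between lines came from the same model, which leaves 2 residual degrees of freedom, with Benjamini-Hochberg adjustment at 0.05. The fit was also run on simulated data with equal noise for every gene and no line-specific response to the shRNA. Real genes differ in both, so that run is no measure of how the fit performs here. The members and lists were chosen with earlier results of these data known. Genes named are all members, the inhibitors, Ccne1, Cdk2 and Rbl1, and list genes among the 3 of largest ratio per line. Skp2, the marker genes, the neighbours of Rb1, Myc and the E-box were picked with values in view. Likeness was measured over 14683 genes for members spanning at least 2 log2 units. Markers of 7 cell types were read as levels. Figures were drawn with matplotlib 3.10.9.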

Additional observations from a re-analysis of the deposited data

Results flagged for a closer look

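Among the members and the pathway lists, with cell type markers left out, genes with a ratio past 1 log2 unit in a line and at least 0.5 the other way in another line were singled out, and these differences between lines were not tested, since each line has 1 array per label. For Ccnd2 the ratio in AE17 exceeded that in MC38 by 2.92 log2 units, at 0.66 against -2.26. For Rb1 the ratio in LLC exceeded that in AE17 by 3.19, at 0.68 against -2.51. This rests on 1 probe set, and those shared with Lpar6 had -0.21 and 0.09 in LLC against -0.63 and -1.09 in AE17. For Cryab AE17 exceeded MC38 by 3.93, at 2.93 against -1.0. For Mcm4, a subunit of the replicative helicase, AE17 exceeded LLC by 2.01, at 0.65 against -1.36. For Tk1 AE17 exceeded LLC by 3.33, at 1.83 against -1.51.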

How the results depend on the processing

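For sh Spp1 against sh Ctrl limma called 0 genes under each alternative run: 3 other scalings, 2 other floors, averaged probe sets, a trend in the variance prior, an adjusted p of 0.10, no replicate block, which gave 0, and each line left out, where the counts ran from 0 to 0. With 2 residual degrees of freedom, and fewer with a line left out, these counts say little on stability. Between lines the count of 0 moved. For MC38 against LLC, AE17 against LLC and MC38 against AE17 it was 225, 103 and 287 in the values as deposited and 89, 9 and 100 with no shRNA term. MC38 against LLC gave 44 with no filter, 42 with the floor at the 50th percentile, 42 with a trend and 112 at an adjusted p under 0.10. MC38 against AE17 gave 27 with the floor at the 50th percentile and 125 at 0.10, and AE17 against LLC gave 1 with a trend. The cause was not tested. Members past 1 log2 unit numbered 6 in LLC and 6 in AE17 with arrays centred on their medians, and 2 and 7 with a threshold of 0.58. The share of all genes past these sizes was not counted at either setting, so nothing is read from the member counts. No ratio or line difference of a member past 1 log2 unit changed sign. With 1 array per line and label, single ratios have no error, and levels near the floor of 4.49, such as that of Ccnd2 in MC38 sh Spp1, are set in part by background.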
